A study of Mus musculus with 2 samples.

Results

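The type I interferon-stimulated genes are 44 mouse genes of a fixed list that cells are known to switch on in response to type I interferon, together with the interferon beta gene and the receptor genes. Members were taken by gene name. Of 14760 genes with an assembled locus and a value in these data, 42 were members. Irf9 lay inside the locus of a neighbouring gene and was given no value, and Ifnb1 had no locus in either library.

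RNA came from wild-type mouse bone marrow cells in culture. The M library was from cells cultured with M-CSF, the growth factor of macrophages and their precursors. The MR library was from cells cultured with M-CSF and RANKL, the cytokine that turns these precursors into bone-resorbing osteoclasts. Both cultures therefore held M-CSF and differed in RANKL. The labels describe 2 days with M-CSF followed by 2 further days with RANKL, but do not name the day of RNA extraction. The culture method in the study's text gives a longer time with RANKL than the labels do, so the exposure of the MR cells is uncertain. The strain and number of mice for these libraries are not given in the labels. There was 1 library per condition, so no difference had a replicate check, no p-value was computed, and each comparison describes these libraries.

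Type I interferons are secreted proteins that bind the receptor made of IFNAR1 and IFNAR2. The receptor's kinases JAK1 and TYK2 phosphorylate STAT2, which joins IRF9 and enters the nucleus. The complex they form binds interferon response elements in the promoters of antiviral genes. Myeloid cells carry a tonic level of this program, and interferon beta is known to restrain osteoclast formation from precursors treated with RANKL.

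Most members were lower with RANKL. The level of a gene is given as TPM, its transcripts per 1000000 transcripts of assembled loci, which allows for transcript length and library size, and the log2 ratio is that of MR to M after adding 1 TPM. Of 42 members with a value, 35 were lower in MR, which is 83.3%, against 40.5% of all genes tested, and 7 were higher. The median log2 ratio was -0.83, whereas that of all 13448 genes tested was 0.21. A log2 ratio below -1 was found for 13 members, which is 31.0% of them, against 13.3% of all genes tested. A log2 ratio above 1 was found for 2 members, 4.76% of them, against 21.2% of all genes tested. The remaining 27 members lay between these limits. All genes tested had a locus of their own, whereas Oas1a and Ifitm2 among the members had a shared locus. Without these, 13 of 40 members were below -1 and 2 were above 1, with a median of -0.84. Together the members held 2.83% of the TPM of all loci in M and 1.57% in MR. In these bulk samples, fewer cells of a type and less RNA per cell cannot be told apart.

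**Figure D1:**
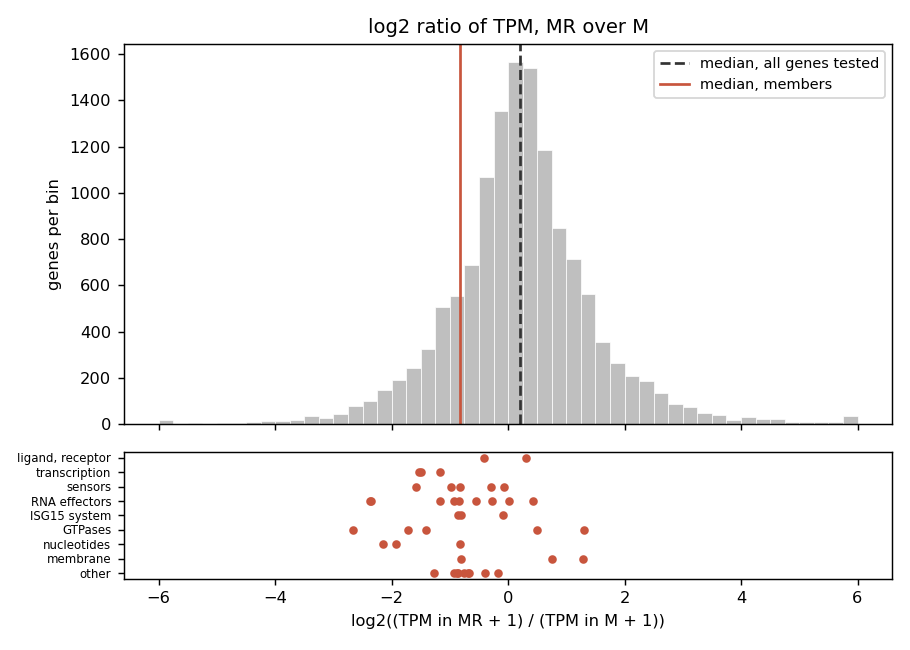
Number of genes in each bin of 0.25 of the log2 ratio of TPM, MR over M (upper panel, grey bars, with the end bins holding all values beyond 6 in either direction), and the ratio of each of 42 members by role (lower panel, 1 point per gene). The median of the members is -0.83 and that of all genes tested is 0.21.

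In M the TPM of the members ran from 42.0 to 3735 with a median of 361, and in MR from 19.8 to 2028 with a median of 206. At least 1000 TPM was reached by 8 members in M and by 5 in MR, and at least 100 TPM by 36 and 35. Read counts are not listed in the tables. From the listed coverage and exon bases, the approximate number of read pairs per member ran from 84 to 63235, and the counting error of the log2 ratio from 0.01 to 0.20 with a median of 0.04. Both ends are rough. For Irf7, which had the most pairs, the annotated exon bases filled the whole gene, so its pairs may be too many and its error too small. Where the listed coverage was low for the TPM, as for Ifit2 in M and Oas1a in MR, the pairs may be too few. These errors cover counting only and not the spread between cultures.

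**Figure D2:**
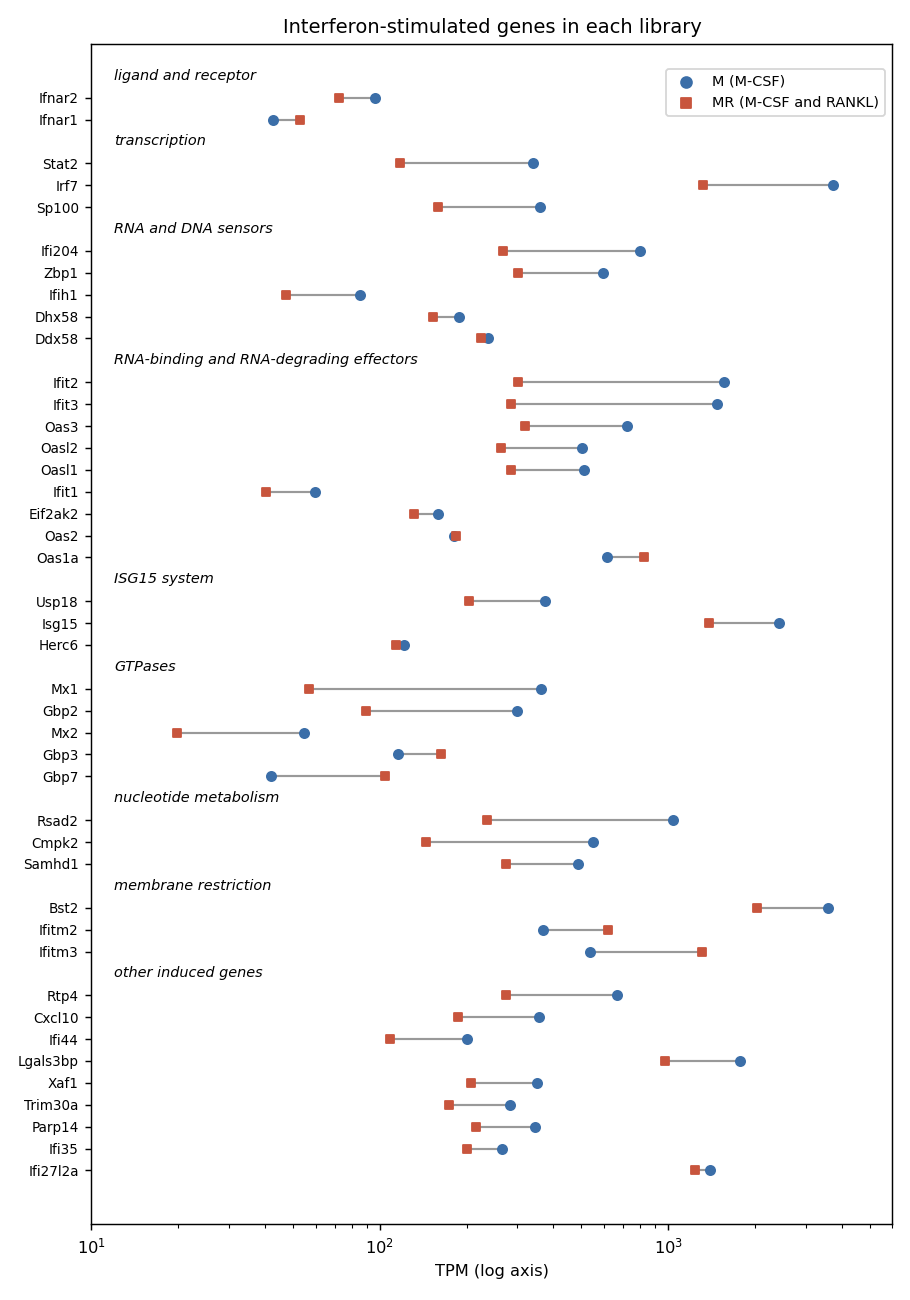
TPM of each of 42 members in M (blue circles) and MR (red squares) on a log axis, grouped by role and ordered by the log2 ratio within a role, with a grey line joining both libraries. In 35 members the red square is to the left of the blue circle.

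The promoter letters of the members were compared with those of all genes, because the family is known for a shared promoter element. The interferon response core was searched as GAAA, any 2 bases and GAAA on either strand, in 300 bases from 250 before to 50 after each start in the RefSeq promoter table (GRCm38.p6). Of 34 members in the table, 18 held at least 1 core, which is 52.9%, against 3.99% of all 27025 genes in it. The STAT palindrome, TTC, any 3 bases and GAA, was found in 10 members, 29.4%, against 9.55% of all genes. Cores of 1 promoter may overlap. Below are the 160 bases before the start, 5′ to 3′ on the strand of the gene, with the cores in capitals. Ifit3 is shown as the member with a core among the 3 lowest log2 ratios and Gbp7 as the member with the highest, and Rsad2, Isg15 and Bst2 were chosen after their values were seen, as members of 3 other roles.
Ifit3, chr19:34583369-34583528, plus strand: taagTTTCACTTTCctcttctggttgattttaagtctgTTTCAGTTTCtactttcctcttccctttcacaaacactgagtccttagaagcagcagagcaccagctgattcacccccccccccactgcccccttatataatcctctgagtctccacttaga
Rsad2, chr12:26456453-26456612, minus strand: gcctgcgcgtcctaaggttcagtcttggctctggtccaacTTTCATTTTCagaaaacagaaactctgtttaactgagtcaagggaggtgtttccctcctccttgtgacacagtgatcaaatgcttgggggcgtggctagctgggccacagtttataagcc
Isg15, chr4:156200819-156200978, minus strand: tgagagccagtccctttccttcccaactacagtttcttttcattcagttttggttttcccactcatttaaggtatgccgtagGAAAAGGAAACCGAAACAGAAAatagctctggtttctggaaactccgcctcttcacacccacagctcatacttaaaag
Bst2, chr8:71537473-71537632, minus strand: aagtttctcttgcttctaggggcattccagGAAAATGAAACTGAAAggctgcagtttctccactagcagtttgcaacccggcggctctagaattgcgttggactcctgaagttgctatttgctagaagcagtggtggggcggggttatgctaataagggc
Gbp7, chr3:142530176-142530335, plus strand: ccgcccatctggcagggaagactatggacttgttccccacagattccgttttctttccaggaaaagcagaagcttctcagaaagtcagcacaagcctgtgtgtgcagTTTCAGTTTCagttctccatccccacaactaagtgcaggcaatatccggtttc
In Isg15, 3 cores overlap in a single run, and in Bst2 a pair overlaps in the same way. Ifit3 holds a pair that is apart, while Rsad2 and Gbp7 hold 1 core each. Counted from the start, with negative positions before it, the nearest core began between -222 (Stat2) and 33 (Ifih1), and in 5 of 18 members it began after the start. Among these 5 is Trim30a, whose core began at 3 from its second start but at -36 from the other.

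**Figure D3:**
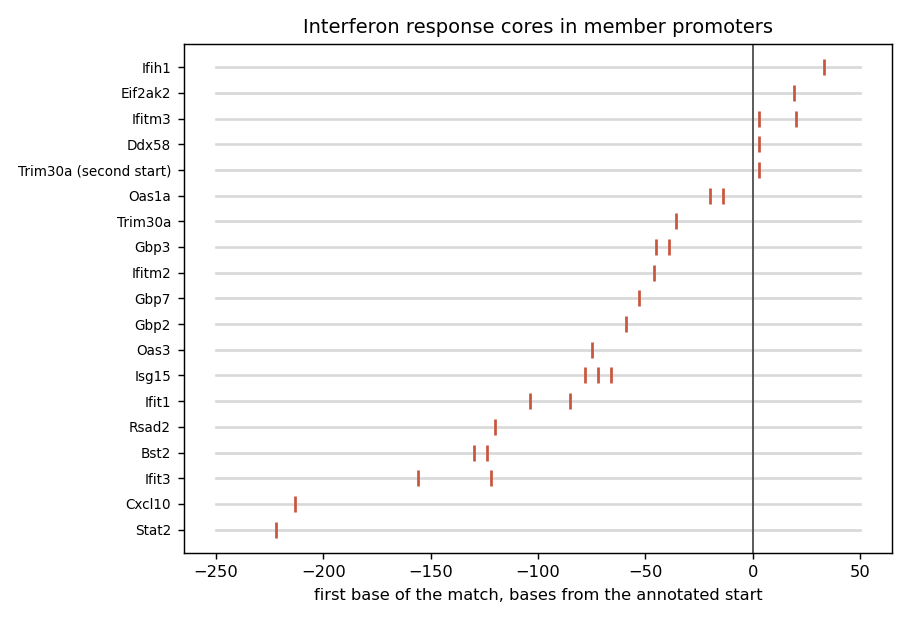
Position of the first base of each interferon response core (red ticks) from the annotated start (vertical line, negative values before it) in the 300-base promoters that hold one, 1 row per promoter (grey line). The cores of 18 members are shown, with a second start for Trim30a.

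Members with and without a core overlapped widely in their ratios, but both members above 1, Ifitm3 and Gbp7, held a core. The 18 members with a core had log2 ratios from -2.36 to 1.30 with a median of -0.75, and 5 of them were below -1. Of these 18, 13 were lower in MR and 2 were above 1. The 14 members with a value and no core in this window ran from -2.37 to 0.30 with a median of -0.85, and 4 of them were below -1. Of these 14, 13 were lower in MR and 0 were above 1. The 10 members without a RefSeq promoter, among them Mx1 with the lowest log2 ratio, are outside this comparison. A match of these letters is not a measured binding site, and no match says only that the letters are not in this window.

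The receptor genes lay between the limits, with small log2 ratios of opposite sign. Ifnar1, which encodes the receptor chain that carries TYK2, was at 42.6 TPM in M against 52.7 TPM in MR, with a log2 ratio of 0.30. Ifnar2, which encodes the chain that binds interferon most tightly and carries JAK1, was at 96.4 TPM in M and at 72.3 TPM in MR (log2 ratio -0.41). Ifnb1, the gene of the ligand interferon beta, had no assembled locus in either library, which does not show that it was not transcribed.

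The transcription genes were all lower with RANKL, and their median log2 ratio was -1.50 over the 3 that had a value. Irf7, the factor that amplifies interferon production, was the most abundant member in M. It stood at 3735 TPM in M, rank 19 among genes by TPM, and at 1318 TPM in MR, rank 110, a log2 ratio of -1.50. Stat2, the STAT protein particular to the type I and type III pathways, was at 339 TPM in M and 117 TPM in MR (log2 ratio -1.52). Irf7 and Stat2 were thus lower by nearly the same factor at very different levels. Sp100, a nuclear body protein, was at 358 TPM in M against 160 TPM in MR, with a log2 ratio of -1.16. Its listed coverage went the other way, with a log2 ratio of 0.34 per aligned Gb. Irf9, the DNA-binding partner of STAT2, lies on chr14:55603571-55610030 (GRCm38) inside the locus given to Rnf31, a ubiquitin ligase gene. That joint locus was at 59.2 TPM in M and 68.6 TPM in MR, and the share of Irf9 in it could not be separated.

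The sensors of viral nucleic acid were lower to different degrees, with log2 ratios from -1.58 to -0.08. Ifi204, a DNA-binding protein of the HIN-200 family, was at 800 TPM in M and at 267 TPM in MR (log2 ratio -1.58). Zbp1, which senses Z-form nucleic acid, was at 596 TPM in M and 302 TPM in MR (log2 ratio -0.98). Ifih1, which encodes the RNA sensor MDA5, was at 85.4 TPM in M against 47.5 TPM in MR, with a log2 ratio of -0.83, and its coverage gave -0.44. By TPM the other RNA sensors of its family stood closer to equality. Dhx58, which encodes LGP2, was at 188 TPM in M and at 153 TPM in MR (log2 ratio -0.30), and its coverage gave -0.35, near that of Ifih1. Ddx58, which encodes RIG-I, was at 237 TPM in M and 225 TPM in MR (log2 ratio -0.08). So the 3 RIG-I-like receptors were all lower in MR, and of these Ddx58 showed the smallest difference.

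Among the effectors that bind or degrade RNA, 7 of 9 were lower in MR, and the median log2 ratio of the role was -0.84. The IFIT proteins include IFIT1, which binds foreign RNA 5′ ends and blocks its translation. Ifit3 was at 1473 TPM in M against 286 TPM in MR, with a log2 ratio of -2.36, and its coverage gave -2.28. Ifit2 was at 1564 TPM in M and at 301 TPM in MR (log2 ratio -2.37). Its coverage per aligned Gb was 94.0 in M against 116 in MR (log2 ratio 0.31), so that its direction depended on the column. The listed coverage of Ifit2 in M was 13.0% of the coverage that its FPKM corresponds to, and 87.0% in MR.

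Ifit1 was assembled in pieces. The locus on its strand was at 59.5 TPM in M and 40.4 TPM in MR (log2 ratio -0.55), and held 15.9% and 17.8% of its exon bases. A locus of the other strand covered 2537 of its 2656 exon bases, at 335 TPM in M and 224 TPM in MR. With that locus added, Ifit1 was at 395 TPM in M against 264 TPM in MR, with a log2 ratio of -0.58. The level of Ifit1 thus depended on this choice far more than its log2 ratio did. Whether the libraries kept the strand is not given in the sources used here.

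The oligoadenylate synthetases make the second messenger that activates RNase L. Their members on chromosome 5 differed in sign by TPM, but the signs of Oas2 and Oas1a depended on the choice of value. Oas3 was at 721 TPM in M and at 318 TPM in MR (log2 ratio -1.18). Oas2 was at 181 TPM in M and 184 TPM in MR (log2 ratio 0.02), and the sign turned negative by FPKM and under both other scalings of the libraries. Oas1a was at 611 TPM in M against 823 TPM in MR, with a log2 ratio of 0.43. The MR locus of Oas1a also covered the neighbouring paralog Oas1g, which had a locus of its own at 318 TPM in M. Summed over both genes the values were 929 TPM in M and 823 TPM in MR, a log2 ratio of -0.18. The listed coverage gave -2.68 for Oas1a, and in MR it was 11.8% of the coverage that the FPKM corresponds to. The direction of Oas1a, counted above as higher, thus depended on the choice. Oasl1, which represses translation of Irf7, was at 510 TPM in M and at 285 TPM in MR (log2 ratio -0.84). Oasl2 was at 501 TPM in M and 264 TPM in MR (log2 ratio -0.92), close to that of Oasl1. Eif2ak2, which encodes the RNA-activated kinase PKR, was at 159 TPM in M against 131 TPM in MR, with a log2 ratio of -0.27.

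**Figure D4:**
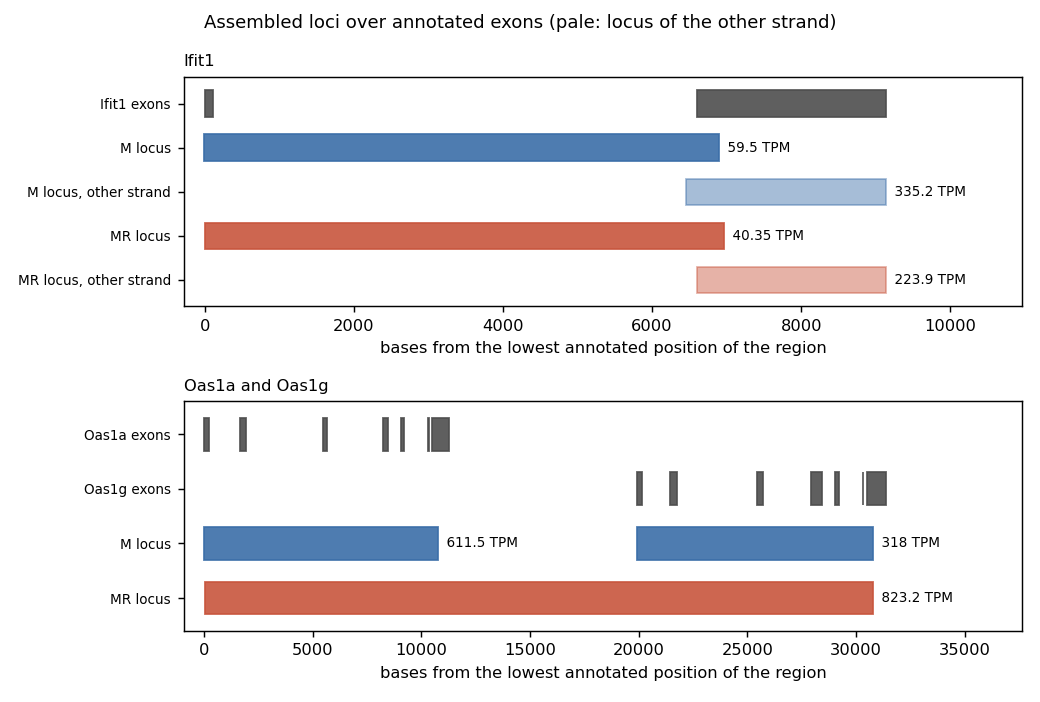
Annotated exons (dark boxes) of Ifit1 (upper panel) and of Oas1a and Oas1g (lower panel) and the assembled loci over them in M (blue) and MR (red), pale where the locus is of the other strand, with the TPM of each locus and the distance in bases on the x axis. The last exon of Ifit1 is covered mainly by the locus of the other strand in both libraries, and 1 MR locus spans both Oas1 genes.

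The ISG15 system showed moderate differences in 1 direction. Isg15, a ubiquitin-like protein that is coupled to newly made proteins, was at 2428 TPM in M and at 1384 TPM in MR (log2 ratio -0.81). Usp18, which removes ISG15 and dampens signalling at the receptor, was at 373 TPM in M and 204 TPM in MR (log2 ratio -0.87). Herc6, the mouse ligase for ISG15, was at 121 TPM in M against 114 TPM in MR, with a log2 ratio of -0.09. None of the 3 passed a log2 ratio of -1.

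The GTPases held both the lowest and the highest log2 ratio of all members. Mx1, a dynamin-like protein that traps viral components, was at 363 TPM in M and at 56.8 TPM in MR (log2 ratio -2.66), and its coverage gave -3.04. Mx2, its neighbour on chromosome 16, was at 54.5 TPM in M and 19.8 TPM in MR (log2 ratio -1.42), and its coverage gave -0.96. Both Mx genes were lower with RANKL in either column. The guanylate-binding proteins, which attack vacuoles that hold pathogens, differed among themselves within 1 cluster on chromosome 3. Gbp2 was at 298 TPM in M against 89.5 TPM in MR, with a log2 ratio of -1.72. Gbp7 was at 42.0 TPM in M and at 105 TPM in MR (log2 ratio 1.30), and its coverage gave 1.21. Gbp3 was at 115 TPM in M and 163 TPM in MR (log2 ratio 0.50), and its coverage gave -0.03. Gbp2 was thus the highest of these in M and the lowest in MR. Paralogs of this family are similar in sequence, and how reads that fit several of them were counted is not given in the sources used here.

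The genes of nucleotide metabolism were all lower, and their median log2 ratio of -1.92 was the lowest of the 9 roles. Rsad2, which encodes viperin and makes a chain-terminating nucleotide, was at 1039 TPM in M against 235 TPM in MR, with a log2 ratio of -2.14. Cmpk2, a mitochondrial nucleotide kinase, was at 547 TPM in M and at 144 TPM in MR (log2 ratio -1.92). These 2 genes lie side by side on chromosome 12, where Rsad2 starts at 26456452 on the minus strand and Cmpk2 at 26469204 on the plus strand (GRCm38). Samhd1, which breaks down the building blocks of DNA, was at 488 TPM in M and 275 TPM in MR (log2 ratio -0.83), and its coverage gave -0.41.

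The membrane restriction genes were split. Bst2, which encodes tetherin and holds budding viruses at the cell surface, was at 3575 TPM in M, rank 20, and at 2028 TPM in MR, rank 48, a log2 ratio of -0.82. It was the most abundant member in MR. Ifitm2, which blocks fusion of viruses in endosomes, was at 369 TPM in M against 621 TPM in MR, with a log2 ratio of 0.75, and its coverage gave 0.69. The locus of Ifitm2 was shared with the predicted gene Gm45717. Ifitm3 was at 538 TPM in M and at 1309 TPM in MR (log2 ratio 1.28). Its coverage per aligned Gb was 226 in M against 111 in MR (log2 ratio -1.03), and in MR it was 19.0% of the coverage that the FPKM corresponds to. The direction of Ifitm3 thus differed between columns of the same tables, whereas Ifitm2 was higher in both.

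All 9 of the other induced genes were lower in MR by TPM, the median log2 ratio was -0.76, and 1 was below -1. That gene was Rtp4, a receptor chaperone, at 666 TPM in M and 275 TPM in MR (log2 ratio -1.27). Cxcl10, a chemokine for activated T cells, was at 358 TPM in M against 187 TPM in MR, with a log2 ratio of -0.93. Ifi44 was at 200 TPM in M and at 109 TPM in MR (log2 ratio -0.87). Both lay just short of the limit of -1. Lgals3bp, a secreted glycoprotein that binds galectin, was at 1775 TPM in M and 978 TPM in MR (log2 ratio -0.86). It was among the 8 members above 1000 TPM in M and was under that level in MR. Xaf1, a proapoptotic zinc finger protein, was at 352 TPM in M against 207 TPM in MR, with a log2 ratio of -0.76. Trim30a, a ubiquitin ligase family protein, was at 283 TPM in M and at 174 TPM in MR (log2 ratio -0.70). These 5 genes stood within a narrow band of ratios, although their levels in M ranged widely.

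Ifi27l2a was abundant in both libraries, at 1397 TPM in M and 1241 TPM in MR (log2 ratio -0.17). Ifi35 was at 265 TPM in M against 201 TPM in MR, with a log2 ratio of -0.40, and in M a locus of the other strand at 237 TPM covered 642 of its exon bases. Parp14, an ADP-ribosyltransferase, was at 345 TPM in M and at 216 TPM in MR (log2 ratio -0.67). Its MR value is the sum of 2 loci, and the longest locus alone gave a log2 ratio of -1.66. The coverage, also summed over these loci, gave 0.62, and a locus of the other strand was at 132 TPM in MR. Both the size and the direction of the difference for Parp14 therefore depended on which column was read and how its pieces were counted.

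Over all members, TPM and listed coverage gave the same direction for 36 of 42. A log2 ratio of coverage per aligned Gb below -1 was found for 13 members, against 11.3% of all genes, and above 1 for 1 member, against 17.4%. The median by coverage was -0.87. By both measures 32 members were lower and 4 were higher, the latter being Oas2, Ifitm2, Gbp7 and Ifnar1. Oas2 stood near equality, with log2 ratios of 0.02 by TPM and 0.05 by coverage and a counting error of 0.05. The 6 whose sign differed were Ifit2, Oas1a, Ifitm3, Parp14, Gbp3 and Sp100, and in each of them the listed coverage was below 90% of the coverage that the FPKM corresponds to in at least 1 library. Below -1 in both measures were 10 members, namely Ifit3, Mx1, Oas3, Rsad2, Irf7, Stat2, Rtp4, Cmpk2, Gbp2 and Ifi204. Of the 22 members with at least 90% in both libraries, 19 were lower in MR and 7 were below -1, with a median log2 ratio of -0.84. The share of all genes is not given for these 22 or for the counts that combine both measures, so none of these counts can be set against a background.

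**Figure D5:**
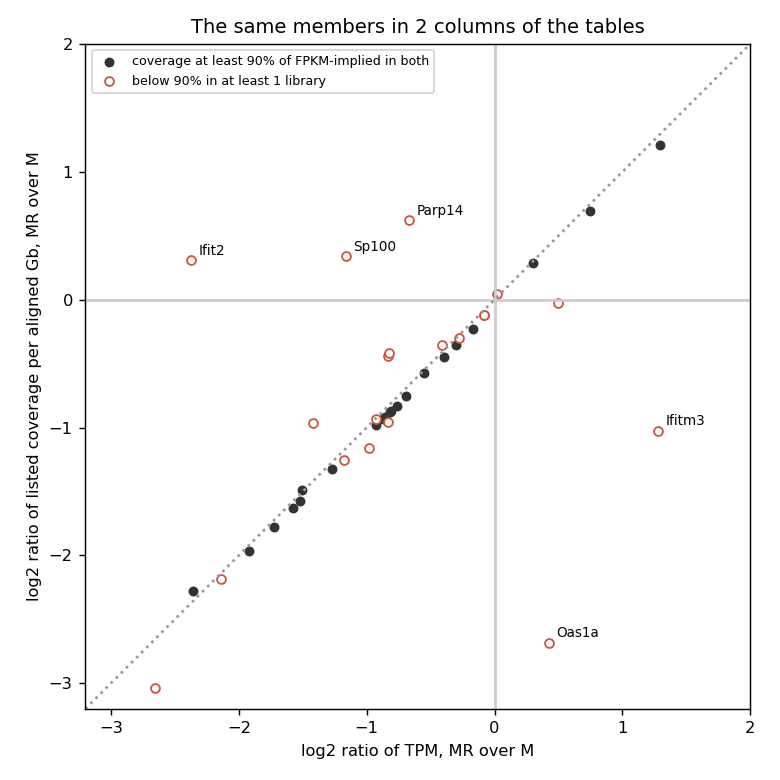
Log2 ratio of TPM (x axis) against log2 ratio of listed coverage per aligned Gb (y axis), MR over M, for 42 members, with equality as a dotted line. Filled points had a coverage of at least 90% of that implied by the FPKM in both libraries, and 5 open points lie far from the line, namely Ifit2, Sp100, Parp14, Ifitm3 and Oas1a.

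The pathway beyond the members was described from a list of 68 further genes, of which 64 had a value. Of these, 54 were lower in MR, which is 84.4% of them, against 40.5% of all genes tested. Below -1 were 23 genes (35.9%, against 13.3% of all genes tested) and above 1 were 2 (3.12%, against 21.2%). Their median log2 ratio was -0.74. By coverage, 79.4% of 63 genes were lower, against 41.8% of all genes, and 31.7% were below -1, against 11.3%. The list was chosen with earlier results of these data known, so its counts are not an independent check on the members. The kinase genes of the receptor were lower but between the limits. Jak1 was at 88.7 TPM in M and 70.1 TPM in MR (log2 ratio -0.34). Tyk2 was at 64.7 TPM in M against 54.3 TPM in MR, with a log2 ratio of -0.25.

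Irf8, a factor that directs monocyte and dendritic cell fate, was at 155 TPM in M and 25.2 TPM in MR (log2 ratio -2.57). Irf5 was at 260 TPM in M against 119 TPM in MR, with a log2 ratio of -1.12. The kinase gene Ikbke, which acts upstream of interferon production, was at 92.2 TPM in M and at 18.3 TPM in MR (log2 ratio -2.28). The receptors of endosomal nucleic acid in the list were lower. Tlr7 had a log2 ratio of -2.53, though only -0.87 by coverage, Tlr9 of -2.59 and Tlr3 of -1.89. The DNA-sensing genes Cgas and Tmem173 (STING) had log2 ratios of -1.26 and -1.09. The inhibitor gene Socs1 was at 18.5 TPM in M and 6.42 TPM in MR (log2 ratio -1.39).

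Relatives of Ifit1, Ifit3 and Ifi204 in the list were lower. Ifit1bl1 was at 557 TPM in M against 89.3 TPM in MR, with a log2 ratio of -2.63. Ifit3b was at 516 TPM in M and at 118 TPM in MR (log2 ratio -2.12). These are close copies of Ifit1 and Ifit3, and reads may be split among them. Neighbours of Ifi204 had log2 ratios of -1.53 (Ifi203), -2.06 (Ifi205) and -1.54 (Mndal, in a shared locus). The largest difference in the list was that of Ccl12, a monocyte chemokine, at 306 TPM in M and 8.90 TPM in MR (log2 ratio -4.96). Iigp1 gave -2.59, Sp110 -2.21, Ifitm6 -2.00, Gbp8 -1.37, Cxcl9 -1.29, Slfn2 -1.05, Tor3a -1.02 and Parp10 -1.06. Parp10 had 0.15 by coverage. Higher with RANKL was Ifi30, a lysosomal thiol reductase, at 476 TPM in M against 1523 TPM in MR, with a log2 ratio of 1.68. Relatives of other members were not all lower by TPM. Ifitm1, a relative of Ifitm2 and Ifitm3, was low in both libraries, at 2.33 TPM in M and 4.52 TPM in MR (log2 ratio 0.73). Its coverage gave 0.14. Parp9, a relative of Parp14, was at 125 TPM in M and 129 TPM in MR (log2 ratio 0.04), and its coverage gave -0.02. Ifitm1 and Parp9 were named after their values were seen. The second gene above 1, Socs3, had no locus in M and 1.09 TPM in MR.

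Markers of cell types also differed between these libraries. All 8 osteoclast markers were above a log2 ratio of 1, and their summed level was 121 TPM in M and 24835 TPM in MR. Calcr, Oscar, Dcstamp and Ocstamp had no locus in M. Of 5 macrophage markers, 3 were below -1 and the sum was 5251 TPM in M and 3267 TPM in MR. Csf1r, the receptor of M-CSF, was at 697 TPM in M and 872 TPM in MR. All 3 monocyte markers were below -1, and their sum was 482 TPM in M and 130 TPM in MR. The part of these markers in the result for the members was not tested.

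Plasmacytoid dendritic cells are a known source of type I interferon. Of their 5 markers 3 had a value, and the sum was 17.7 TPM in M and 16.1 TPM in MR. Most of this sum was Tcf4, at 16.0 TPM in M and 13.2 TPM in MR. Siglech was at 1.63 TPM in M and 1.58 TPM in MR, and Ccr9 had no locus in M and 1.36 TPM in MR. The 7 neutrophil markers summed to 1285 TPM in M and 900 TPM in MR, with 0 past a log2 ratio of 1 in either direction. The conventional dendritic, B cell, T and NK cell, erythroid, stromal, and mast cell and basophil markers summed to at most 57.6 TPM in M and 56.3 TPM in MR.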

How the data were processed

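Total RNA from 2 cultures was sequenced as paired reads of 150 bases. The authors trimmed with Trim Galore, aligned to mm10 with HISAT2 and ran StringTie on GENCODE vM27, whose positions are of another build. The deposited tables hold coverage (a signal of depth per base, without correction for library size), FPKM and TPM. The TPM of assembled loci sums to 1000000 in each library.

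Of 19422 loci in M and 19922 in MR, 15665 and 16523, with 95.4% and 96.9% of the TPM, were given to the GENCODE vM21 gene (GRCm38) with the most exon bases in them, at least 50, on a compatible strand. TPM was summed per gene. Counts over all genes used those with a locus not shared with another coding gene and at least 1 TPM in a library. Counts over the members and lists also used genes with a shared locus. Aligned bases (3.63 Gb in M, 2.98 Gb in MR) came from the commonest ratio of coverage to FPKM. The assignment was tested on simulated data with 1 locus per gene on the strand of the gene. Merged loci, split loci and loci of the other strand were not simulated, so the test does not cover those cases.

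The members and lists were chosen with earlier results of these data known. All members with a value were named, and of other pathway genes those past a log2 ratio of 1 in size with at least 10 TPM, plus Jak1, Tyk2 and Irf8. A further gene that the rule names is not reported here. Of the promoters shown, Ifit3 and Gbp7 were named by a core among the 3 lowest ratios and the highest. Rsad2, Isg15 and Bst2 were chosen after their values were seen. Alternatives were a pseudocount of 0.1, other filters, scalings and thresholds, FPKM, coverage and other ways to assign loci. Python 3.11.15, matplotlib 3.10.9, pandas 2.3.3, numpy 2.4.6 and scipy 1.17.1 were used.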

Additional observations from a re-analysis of the deposited data

How the results depend on the processing

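The median of the members was -0.83. It was -1.01 under median-of-ratios scaling and -0.97 when mitochondrial genes and the 20 most abundant genes were left out, and the count below -1 was then 22 and 18, which is 52.4% and 42.9% of the members, against 15.7% and 16.0% of all genes. The first scaling brought the median of all genes to 0.03. At a log2 threshold of 2, 4 members (9.52%, against 3.87% of all genes) were below and 0 (against 7.09%) above, and the share of all genes past the threshold was 11.0%, compared with 34.5%. By coverage 1 member was above 1. Among the 22 members whose coverage was at least 90% of that implied by their FPKM, an alternative chosen after seeing the data, 7 were below -1 and 1 above 1. The matching shares of all genes are not given. Coverage reversed Ifit2 (0.31), Ifitm3 (-1.03) and Sp100 (0.34), and the cause was not tested. Of 378 values of single members under the alternatives, 270 stayed within the interval of their counting error and 105 moved beyond it without reversing one past a log2 ratio of 1 in size. The filters and the limit to unshared loci cannot change the ratio of a single member, so the 270 hold values that could not move. Of 42 values each, 40 moved under median-of-ratios scaling and 39 with the most abundant genes left out. No paired analysis was possible because each condition had 1 library, and no library could be left out. The tables list no read counts, so the counting errors used here and the precision of single genes are approximate.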
